A study of Mus musculus with 6 samples.

Results

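The 10 genes described here act in cholesterol ester storage and cholesterol efflux, and they were measured in organoids from mouse pancreatic tumours that kept or had lost the remaining wild-type Trp53 allele. They are Soat1, Soat2, Lipa, Nceh1, Npc1, Npc2, Abca1, Abcg1, Nr1h2 and Nr1h3, matched by gene name, so 10 of the 53379 annotated genes in the deposited tables. After the filter on low counts, 9 of the 10 were among the 14537 genes tested, and Abca1 was not.

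The data were 6 RNA-seq libraries from 3 organoid lines, numbered 6, 23 and 34, each grown from a KPC tumour of strain C57/Bl6 in a matrigel dome. Each line gave 1 heterozygous library with the genotype Trp53LSLR172H/+ and 1 library with the genotype Trp53LSLR172H/-, called LOH for loss of heterozygosity. Both groups also carried Pdx1-Cre, a Cre recombinase driven by a promoter of the pancreatic lineage, and the mutant Trp53 allele was shared by all 6 libraries, so no library had an intact Trp53 pair. The labels do not say whether the libraries of a group came from separate cultures beyond the separate lines, and every LOH library has a suffix in its description that no label explains and that cannot be told apart from genotype. Values below are given in the order of lines 6, 23 and 34.

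Cells keep free cholesterol within narrow limits because an excess of it disturbs membranes. Surplus cholesterol in the endoplasmic reticulum is joined to a fatty acid by the sterol O-acyltransferases, SOAT1 and SOAT2, and the cholesterol esters are stored in lipid droplets. Neutral cholesterol ester hydrolase, encoded by Nceh1, and lysosomal acid lipase, encoded by Lipa, split esters again, and NPC1 and NPC2 move the sterol freed in lysosomes out to other membranes. ABCA1 and ABCG1 pass cholesterol to acceptors outside the cell, and both genes are classical targets of the oxysterol receptors LXR alpha (Nr1h3) and LXR beta (Nr1h2). In the tumour epithelium of the pancreas, as in other epithelia, SOAT1 is the more widely expressed of the acyltransferases, whereas SOAT2 is best known from intestine and liver.

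The upstream sequences of 4 of the genes are shown because the levels of these genes did not overlap between the groups and RefSeq promoters were at hand for them. Each is the stretch of 250 bases before the RefSeq start of the gene in GRCm38.p6, read 5′ to 3′ on the strand of the gene. They lie at chr1:156474329-156474578 (minus strand) for Soat1, chr3:27182754-27183003 (plus strand) for Nceh1, chr12:84773113-84773362 (minus strand) for Npc2 and chr7:44553966-44554215 (minus strand) for Nr1h2. Capitals mark matches, on either strand, to the motifs searched.
Soat1: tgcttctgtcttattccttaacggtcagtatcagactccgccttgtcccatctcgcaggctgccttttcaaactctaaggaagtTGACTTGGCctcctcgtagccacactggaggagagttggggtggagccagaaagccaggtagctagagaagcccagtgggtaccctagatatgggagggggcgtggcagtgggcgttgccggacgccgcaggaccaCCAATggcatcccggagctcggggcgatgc
Nceh1: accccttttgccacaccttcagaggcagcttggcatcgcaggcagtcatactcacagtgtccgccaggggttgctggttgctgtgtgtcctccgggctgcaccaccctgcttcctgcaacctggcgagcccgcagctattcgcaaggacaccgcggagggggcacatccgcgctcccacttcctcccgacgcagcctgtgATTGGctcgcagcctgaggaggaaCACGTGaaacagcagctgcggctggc
Npc2: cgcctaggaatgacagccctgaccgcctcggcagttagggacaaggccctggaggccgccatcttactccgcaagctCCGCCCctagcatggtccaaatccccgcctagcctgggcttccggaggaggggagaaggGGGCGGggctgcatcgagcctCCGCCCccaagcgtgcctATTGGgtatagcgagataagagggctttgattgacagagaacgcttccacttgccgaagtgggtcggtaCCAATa
Nr1h2: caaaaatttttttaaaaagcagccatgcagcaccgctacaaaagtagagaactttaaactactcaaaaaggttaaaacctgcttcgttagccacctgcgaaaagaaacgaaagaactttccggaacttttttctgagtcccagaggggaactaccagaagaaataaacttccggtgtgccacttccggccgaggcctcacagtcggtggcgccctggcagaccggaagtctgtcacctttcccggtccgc

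The motifs were the E-box CACGTG, its extension in lysosomal genes TCACGTGA (the CLEAR element, each match of which is also an E-box match), the LXR repeat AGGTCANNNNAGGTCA, the sterol element TCACCCCAC, the antioxidant element TGACNNNGC, the GC box (GGGCGG), the CCAAT box and the TATA box (TATAAA). The Soat1 window held 1 antioxidant element at position -166 from the start and 1 CCAAT box at -30. Among 32817 RefSeq promoters of the same length, 10.2% held the former and 33.8% the latter. The Nceh1 window held an E-box at -26, a sequence found in 6.02% of all promoters, and a CCAAT box at -50. Npc2 had 3 GC boxes, each match of the kind found in 32.7% of promoters, and 2 CCAAT boxes, and Nr1h2 had no match to any of the motifs. The LXR repeat, the sterol element and the CLEAR element, present in 0.0152%, 0.497% and 0.786% of all promoters, were not spelled out in the 8 promoters found for 7 of the 10 genes. These matches describe letters in a window and not sites in use.

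Depth ranged from 13680458 to 27917277 counts per library, and 3 counts corresponded to between 0.1 and 0.223 CPM (counts scaled to a common library total). The share of counts in protein-coding genes was 67.9% to 73.3% among heterozygous and 61.4% to 67.2% among LOH libraries, and the part of this gap in the results below was not tested. CPM here are scaled by the trimmed mean of M-values (TMM), which centres the bulk of genes, whereas TPM divide by transcript length and by the library total. On the log2(TPM + 1) scale the median gene lay 0.35 lower in LOH, and the cause of this shift was not tested. Trp53, the gene that defines the groups, had 80.01 ± 5.61 CPM in the heterozygous and 57.8 ± 13.9 CPM in the LOH libraries (SD, n = 3), without overlap, and did not pass the test (log2 fold change -0.47, edgeR adjusted p = 0.227). Gene counts cannot separate its mutant from its wild-type allele. All 8 ductal epithelium markers passed the filter on low counts, with summed levels of 5511 to 6300 CPM in the heterozygous and 5759 to 11335 CPM in the LOH libraries.

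In TPM (transcripts scaled to a fixed total per library), which allow levels of different genes to be compared, the 10 genes spread from abundant storage and export genes to barely detected efflux genes. Npc2 (30.4 ± 3.84 TPM), Soat1 (25.97 ± 3.93) and Nr1h2 (23.3 ± 1.82) led in the heterozygous libraries (mean ± SD, n = 3), and Soat1 and Nr1h2 overlapped there. Nceh1 (7.03 ± 0.70), Npc1 (6.06 ± 0.60) and Lipa (5.83 ± 0.70) formed the next step, again with overlapping libraries. Soat2 (1.58 ± 0.62) and Nr1h3 (1.45 ± 0.34) overlapped as well, and Abcg1 (0.27 ± 0.14) and Abca1 (0.053 ± 0.042) came last.

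In the LOH libraries Soat1 stood first at 51.9 ± 5.10 TPM (SD, n = 3), ahead of Npc2 at 36.8 ± 11.1, whose highest library overlapped it, and Nr1h2 at 24.3 ± 0.29. Lipa followed at 8.93 ± 5.30, Npc1 at 6.75 ± 0.63 and Nceh1 at 3.56 ± 1.07, so Nceh1 passed from the fourth place to the sixth. Soat2 had 3.40 ± 3.12 TPM, Abcg1 0.68 ± 0.70, Nr1h3 0.67 ± 0.55 and Abca1 0.093 ± 0.14, all with spreads nearly as wide as their means or wider.

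**Figure D1:**
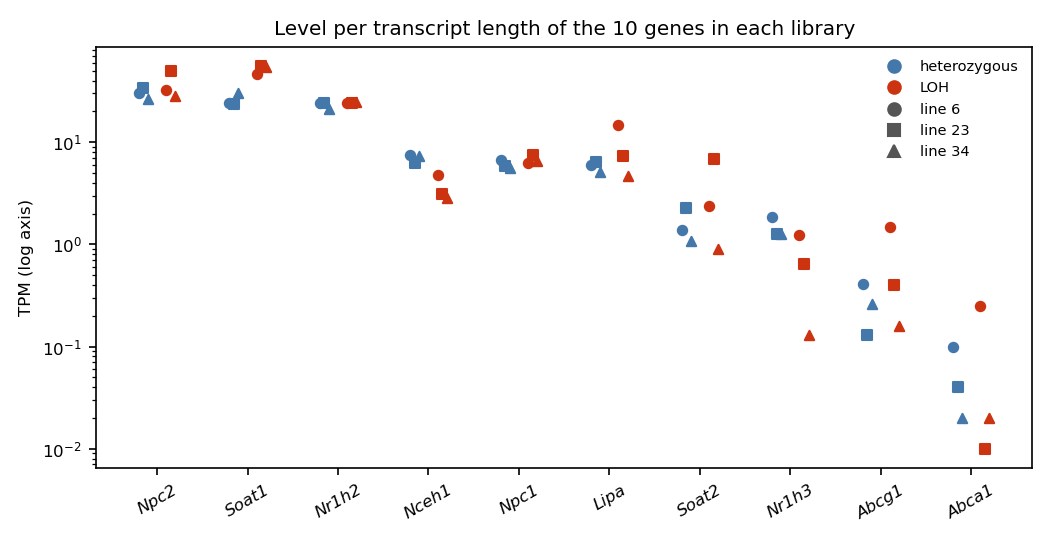
TPM of the 10 genes (log axis) in each library, heterozygous in blue and LOH in red, with a symbol for each organoid line; genes are ordered by their mean in the heterozygous libraries. Soat1 lies at 23.4 to 30.5 TPM in the heterozygous and 46.1 to 55.6 TPM in the LOH libraries, while Abca1 stays at or below 0.25 TPM in all 6.

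Soat1 was the 1 gene of the 9 tested that passed the test between LOH and heterozygous libraries, beside 5.21% of all genes tested. With edgeR's quasi-likelihood test and Benjamini-Hochberg adjustment at 0.05, 516 genes were higher in LOH (3.55%) and 241 lower (1.66%). On the log2(TPM + 1) scale limma called 282 higher and 1508 lower, so the balance of directions depended on the scale. The levels of 5 of the 9 did not overlap between the groups, against 32.8% of all genes tested: Soat1, Npc1, Npc2 and Nr1h2 were higher in every LOH library than in any heterozygous one (16.4% of all genes) and Nceh1 was lower (16.5%). In all, 6 of the 9 had an unadjusted p under 0.05, as did 3681 of the 14537 genes. Once organoid line was added as a block, Soat1 was again the 1 gene called, and higher (1.47% of all genes passed, and 1.22% passed as higher), and 3 of the 9 had an unadjusted p under 0.05.

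Soat1, the acyltransferase of the endoplasmic reticulum, lies on the minus strand at chr1:156424525-156474331 (GRCm38). It measured 52.8, 59.4 and 62.6 CPM in heterozygous and 147, 204 and 187 CPM in LOH organoids. All 3 LOH libraries were thus far above all 3 heterozygous ones, and line 23 had the highest LOH value. The means were 58.3 ± 5.0 and 179.5 ± 29.2 CPM (SD, n = 3), a 3.08-fold difference, with ratios of 2.79, 3.44 and 2.98 within lines. The fitted log2 fold change was 1.62 (SE 0.20, 95% interval 1.16 to 2.08, edgeR adjusted p = 0.0164), and 1.61 with the line block (adjusted p = 0.0431). Without any 1 heterozygous library the fold change stayed between 1.53 and 1.67 but its edgeR adjusted p rose to between 0.0951 and 0.106, and no gene passed in those fits (2272 to 2966 with an unadjusted p under 0.05). On the log2(TPM + 1) scale the difference was 0.98 (limma adjusted p = 0.0277), beside the shift of -0.35 of the median gene. An antisense gene of unknown product, Gm37648, overlaps Soat1 with at most 18 counts in any library, against 800 or more for Soat1.

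**Figure D2:**
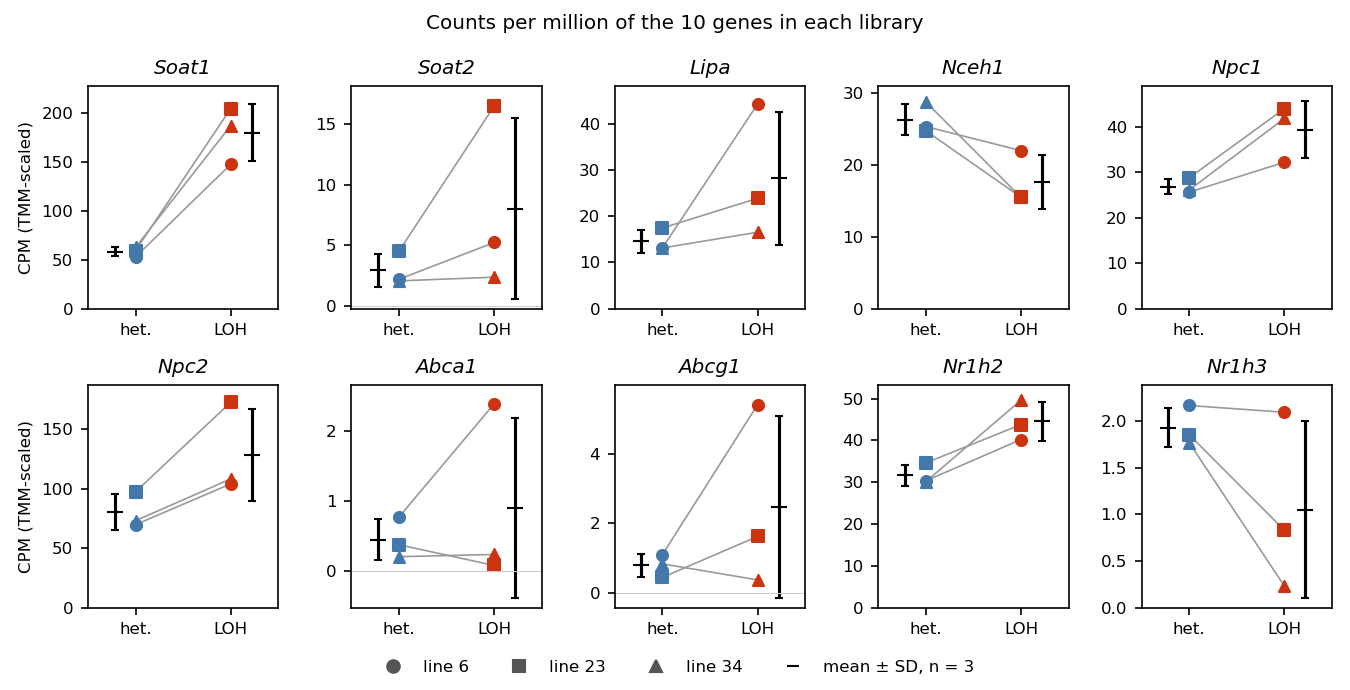
TMM-scaled CPM of the 10 genes in each library, with a line joining the heterozygous and LOH library of each organoid line and bars for mean ± SD (n = 3). Soat1 lies at 52.8 to 62.6 CPM in the heterozygous and 147 to 204 CPM in the LOH libraries, while the LOH mean of Lipa is drawn up by line 6 and that of Soat2 by line 23.

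There are 8 annotated Soat1 transcripts, and a pair of them held nearly all counts: Soat1-201 (ENSMUST00000051396.12, 2925 bases) with 48.3% and Soat1-207 (ENSMUST00000189661.6, 8371 bases) with 46.9%. The other 6 had at most 1.74% each. Both share the same 15 coding exons and a coding sequence of 1620 bases, so they differ outside it. Soat1-207 starts 7527 bases further upstream with an extra first exon and ends 5268 bases further downstream, with 5′ and 3′ untranslated regions of 214 and 6537 bases against 36 and 1269 in Soat1-201. The upstream Soat1 sequence shown above lies at the start of Soat1-207. The stretch before the start of Soat1-201 was not searched for motifs.

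Soat1-201 measured 11.3, 10.8 and 12.02 TPM in the heterozygous and 26.8, 27.1 and 28.2 TPM in the LOH libraries. Soat1-207 measured 4.06, 3.34 and 3.57 TPM in the heterozygous and 7.18, 11.5 and 7.50 TPM in the LOH libraries. Neither form overlapped between the groups, and for the long form the LOH library of line 23 stood above the other LOH libraries. Their log2 fold changes were both 1.68 (SE 0.19 and 0.24), with edgeR adjusted p = 0.0662 for Soat1-201 and 0.0811 for Soat1-207 over the 36699 transcripts tested. Only 10 transcripts (0.0272%) passed in that comparison, 0.0245% higher and 0.00272% lower, although 5056 had an unadjusted p under 0.05, and none passed with the line block, where 3367 did. With the block the edgeR adjusted p was 0.362 for Soat1-201 and 0.376 for Soat1-207, at fold changes of 1.69 and 1.65.

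By share of counts the pair of main forms overlapped between the groups. Soat1-201 held 48.0 ± 1.5% of the counts of the gene in the heterozygous and 49.7 ± 6.08% in the LOH libraries (SD, n = 3; two-sided exact permutation p = 0.6). Soat1-207 held 45.6 ± 3.12% and 46.0 ± 6.67% (exact permutation p = 1). The smallest p that 3 libraries against 3 allow is 0.1. Line 23 ran opposite to the other lines: its Soat1-207 share was 44.6% in the heterozygous and 53.7% in the LOH library, against 49.1% and 42.4% in line 6 and 43.1% and 41.9% in line 34.

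By share of TPM, the deposited isoform percent, which weighs each form per length, Soat1-201 did not overlap between the groups. It held 47.2%, 46.2% and 39.4% in the heterozygous and 58.1%, 48.7% and 52.2% in the LOH libraries (exact permutation p = 0.1, the smallest possible). The short form Soat1-206 (ENSMUST00000188027.1, 366 bases), with 1.57% of the counts, was lower by this measure, at 26.6%, 20.7% and 26.1% against 14.1%, 20.6% and 20.2% (exact permutation p = 0.1), with a margin in line 23 far below the spread within groups. Soat1-207 overlapped, at 16.9%, 14.3% and 11.7% against 15.6%, 20.7% and 13.9% (exact permutation p = 0.5).

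**Figure D3:**
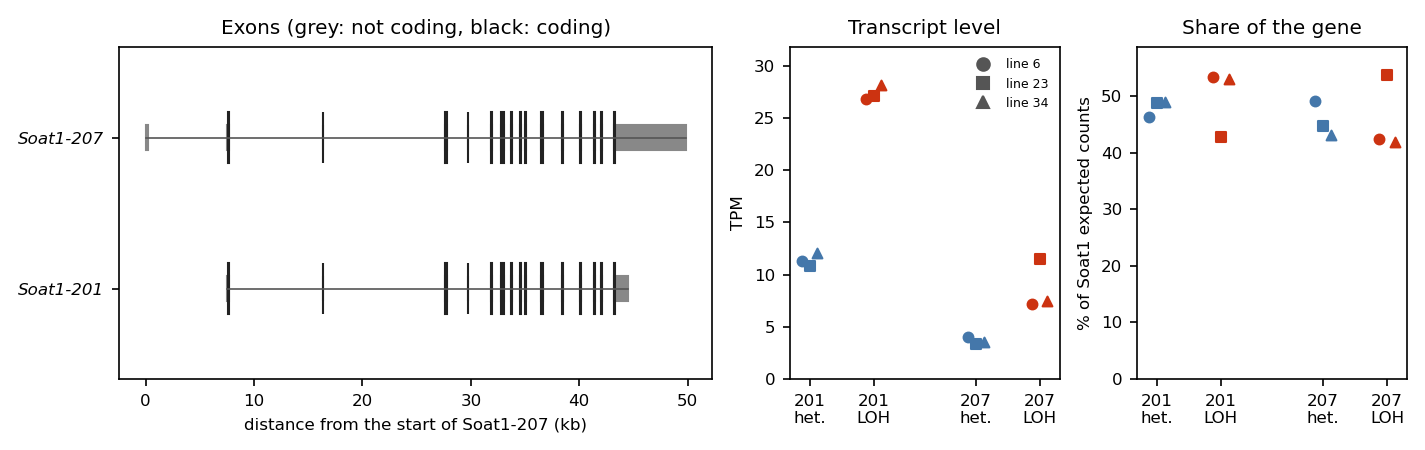
Left, exons of the main Soat1 transcripts by distance in kb from the start of Soat1-207, coding exons in black and non-coding parts in grey. Middle and right, TPM and share of the Soat1 counts (percent) of each transcript in each library: both forms are higher in TPM in every LOH library, while their shares of the counts overlap between the groups.

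Soat2, the intestinal and hepatic acyltransferase (chr15:102150526-102163469, plus strand), was far below Soat1 and uneven between lines. It measured 2.2, 4.53 and 2.07 CPM in the heterozygous and 5.24, 16.5 and 2.37 CPM in the LOH libraries. Each LOH library was above its own line's heterozygous library, but the groups overlapped, and line 23 alone accounted for the highest value on both sides. The log2 fold change was 1.47 (SE 0.72, 95% interval -0.23 to 3.17, edgeR adjusted p = 0.252), and 0.39 without the LOH library of line 23. In TPM, Soat1 exceeded Soat2 by 17.5, 10.3 and 27.98 times in the heterozygous and by 19.2, 8.06 and 59.4 times in the LOH libraries.

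Among the ester hydrolases, Nceh1 (chr3:27182965-27284608, plus strand) was the gene of the 10 with the clearest lower levels in LOH. It measured 25.3, 24.7 and 28.7 CPM in the heterozygous and 21.9, 15.5 and 15.5 CPM in the LOH libraries. No LOH library reached a heterozygous one, and the LOH library of line 6 was nearest. The log2 fold change was -0.57 (SE 0.22, 95% interval -1.08 to -0.07), which did not pass the test (edgeR adjusted p = 0.154). It passed without the LOH library of line 6, where edgeR called 2449 of all genes (-0.80, edgeR adjusted p = 0.0327), and on the log2(TPM + 1) scale (-0.84, limma adjusted p = 0.0490), where the median gene was itself at -0.35. The TPM ratio of Soat1 to Nceh1, an esterifying to a hydrolysing enzyme, was 3.19, 3.76 and 4.16 in the heterozygous and 9.62, 18.0 and 19.2 in the LOH libraries. That these ratios do not overlap is no separate result, since Soat1 and Nceh1 each separated in TPM, in opposite directions.

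Lipa, the acid lipase that splits esters in lysosomes (chr19:34492318-34527474, minus strand), measured 13.1, 17.4 and 13.1 CPM in the heterozygous and 44.2, 23.9 and 16.5 CPM in the LOH libraries. Line 6 alone showed a wide gap, with a log2 ratio of 1.74 against 0.45 and 0.33 in the other lines, and the groups overlapped. The log2 fold change was 0.95 (SE 0.37, 95% interval 0.07 to 1.83, edgeR adjusted p = 0.169), and 0.44 without the LOH library of line 6. The TPM ratio of Soat1 to Lipa overlapped between the groups: 4, 3.65 and 6.03 in the heterozygous and 3.10, 7.62 and 11.7 in the LOH libraries.

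The genes of sterol export from lysosomes, Npc1 and Npc2, were both higher in every LOH library in CPM, and neither passed the test. Npc2, the soluble protein that hands cholesterol to NPC1 (chr12:84754562-84773152, minus strand), measured 69.9, 97.5 and 73.2 CPM in the heterozygous and 104, 173 and 108 CPM in the LOH libraries. Its log2 fold change was 0.68 (SE 0.26, 95% interval 0.06 to 1.3, edgeR adjusted p = 0.164), and 0.41 without the LOH library of line 23. The separation was narrow, since the highest heterozygous library stood close under the lowest LOH library. Npc1, the membrane protein that receives the sterol (chr18:12189692-12236400, minus strand), measured 25.6, 28.8 and 26.1 CPM in the heterozygous and 32.2, 44.0 and 41.8 CPM in the LOH libraries. Its log2 fold change was 0.55 (SE 0.19, 95% interval 0.10 to 1.01, edgeR adjusted p = 0.133). Npc1 passed without the LOH library of line 6 (0.64, edgeR adjusted p = 0.0405), where edgeR called 2449 of all genes. Npc1 overlaps Rmc1 on the opposite strand, which had 354 to 780 counts per library, and the strand setting of the counting is not given in the sources used here, so reads of the pair may not be fully separated.

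In TPM these separations were not seen. Npc1 had 5.58 to 6.73 TPM in the heterozygous and 6.30 to 7.47 TPM in the LOH libraries, and Npc2 had 26.5 to 34.2 and 28.6 to 49.5 TPM. The LXR beta gene Nr1h2 likewise had 21.2 to 24.4 and 24.1 to 24.7 TPM. Soat1 and Nceh1 kept theirs, at 23.4 to 30.5 against 46.1 to 55.6 TPM and at 6.23 to 7.52 against 2.82 to 4.79 TPM. The separation of Npc1, Npc2 and Nr1h2 was thus present with TMM scaling and absent in TPM.

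Of the receptors, Nr1h2 (LXR beta, chr7:44549616-44553951, minus strand) measured 30.4, 34.6 and 30.1 CPM in the heterozygous and 40.2, 43.8 and 49.6 CPM in the LOH libraries. No overlap remained between the groups in CPM. Its log2 fold change was 0.49 (SE 0.18, 95% interval 0.07 to 0.91, edgeR adjusted p = 0.145). Several transcripts shared its counts. ENSMUST00000107911.7 held 19.2 ± 2.66% of them in the heterozygous and 29.4 ± 3.21% in the LOH libraries (SD, n = 3; exact permutation p = 0.1), and ENSMUST00000073488.11 held 36 ± 5.51% and 24.3 ± 8.93% (exact permutation p = 0.2). The transcript fits gave log2 fold changes of 1.15 and -0.09 (edgeR adjusted p = 0.145 and 0.941), so neither passed.

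Nr1h3 (LXR alpha, chr2:91184061-91202834, minus strand) had 65, 25 and 53 counts in the heterozygous and 36, 22 and 5 counts in the LOH libraries. That made 2.17, 1.85 and 1.77 CPM against 2.10, 0.83 and 0.23 CPM. The groups overlapped in CPM through the LOH library of line 6, and in TPM they did not, at 1.25 to 1.84 against 0.13 to 1.23. Its log2 fold change was -0.89 with a wide interval (SE 0.71, 95% interval -2.55 to 0.77, edgeR adjusted p = 0.461), and went from -0.42 without the LOH library of line 34 to -1.88 without that of line 6.

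The exporters were close to the floor of detection. Abcg1 (chr17:31057675-31117988, plus strand) had 33, 6 and 25 counts in the heterozygous and 93, 43 and 8 counts in the LOH libraries, or 1.10, 0.45 and 0.84 against 5.41, 1.62 and 0.37 CPM. LOH was above heterozygous in lines 6 and 23 and below it in line 34. The log2 fold change was 1.6 (SE 0.89, 95% interval -0.51 to 3.70, edgeR adjusted p = 0.308), and 0.26 without the LOH library of line 6. Abca1 (chr4:53030787-53159895, minus strand), the exporter to lipid-poor apolipoprotein, had 23, 5 and 6 counts in the heterozygous and 41, 2 and 5 counts in the LOH libraries and was not tested. No difference was detected for Abcg1, and the library of line 6 was the highest of its group for Abca1, Abcg1 and Nr1h3 in both groups.

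**Figure D4:**
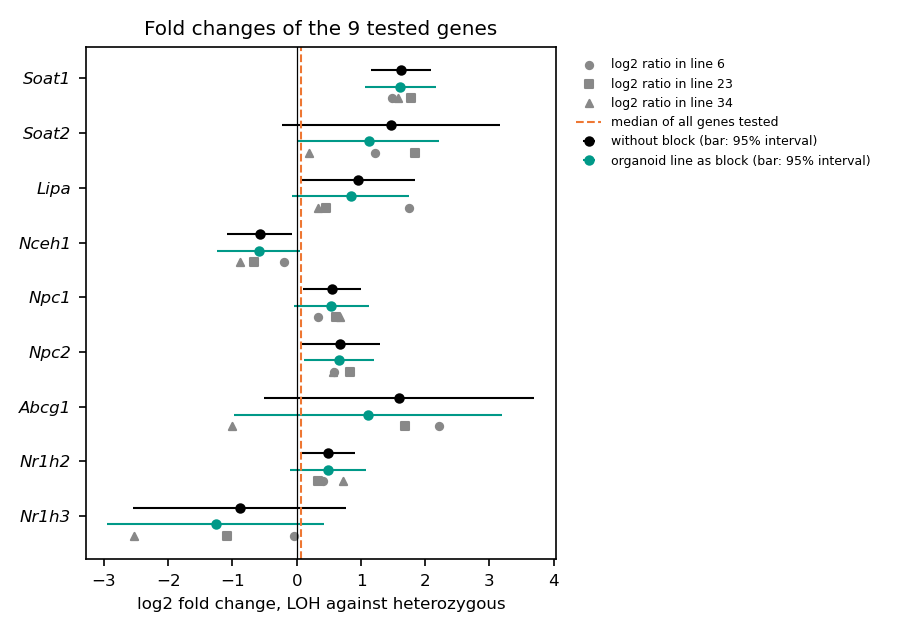
Log2 fold changes (LOH against heterozygous) of the 9 tested genes fitted without and with a block for organoid line, with 95% intervals, and the log2 ratio within each line; the dashed line marks the median of all genes tested (0.063). Without the block, the interval of Soat1 (1.16 to 2.08) lies above those of Nr1h2 and Npc1, and those of Abcg1, Soat2 and Nr1h3 are wide and include 0.

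Genes around this pathway were taken from lists chosen by function: targets of LXR, cholesterol uptake and sterol transfer, the SREBP2 pathway of cholesterol synthesis, lipid droplet genes, relatives of Soat1 in the MBOAT family, oxysterol and bile acid enzymes, and genes of HDL and chylomicrons. The median log2 fold change of all genes tested was 0.063, and 5.21% of them passed in either direction. Of the LXR targets, 10 of 14 were tested and none passed in edgeR (4 with an unadjusted p under 0.05, and 5 with the line block), with a median of 0.09. DESeq2 called 3 of them higher (8.87% of all genes it tested were called higher and 5.28% lower), and limma on log2(TPM + 1) called 1 lower (12.7% of all genes lower and 2.37% higher). Srebf1, the lipogenic transcription factor gene that LXR drives, had 117.9 CPM in the heterozygous and 108.1 CPM in the LOH libraries (log2 fold change -0.13, edgeR adjusted p = 0.654). Mylip, which encodes a ubiquitin ligase induced by LXR, had 1.39 and 1.51 CPM (0.10, edgeR adjusted p = 0.960).

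In the list of cholesterol uptake and sterol transfer, 2 of 23 tested genes rose and 1 fell (edgeR), with a median of 0.12, and with the line block 2 rose and 0 fell (8 with an unadjusted p under 0.05 in each fit). Vldlr, a lipoprotein receptor, rose from 17.9 ± 4.73 to 103.7 ± 47.9 CPM (SD, n = 3; log2 fold change 2.53, edgeR adjusted p = 0.0219). Gramd1a, which carries plasma membrane cholesterol to the endoplasmic reticulum where SOAT1 acts, rose from 2.46 ± 0.73 to 12.7 ± 1.34 CPM (2.36, edgeR adjusted p = 0.0164). Scarb1, a receptor for HDL, stood at 36.9 and 39.4 CPM (0.10, edgeR adjusted p = 0.750).

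None of the 25 SREBP2 pathway genes passed in edgeR, with or without the line block, and 7 and 4 of them had an unadjusted p under 0.05. DESeq2 called 1 of them higher and limma on log2(TPM + 1) called 2 lower, shares no greater than the 8.87% and 12.7% of all genes. The median was 0.01. Insig1, which retains the SREBP complex in the endoplasmic reticulum, stood at 177.7 and 268.1 CPM (log2 fold change 0.59, edgeR adjusted p = 0.342).

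Among 21 tested lipid droplet genes, 1 rose and 1 fell, with a median of -0.02, and neither call held with the line block (7 with an unadjusted p under 0.05 in each fit). DESeq2 called 3 higher and 2 lower in this list, and limma on log2(TPM + 1) called 0 higher and 3 lower, beside its 2.37% and 12.7% of all genes. Plin2, which coats lipid droplets and marks stored neutral lipid in many cells, fell from 19.3 ± 1.90 to 8.98 ± 1.26 CPM (SD, n = 3; log2 fold change -1.10, edgeR adjusted p = 0.0367, block 0.106). Hsd17b11, an enzyme that sits on droplets, rose from 6.04 ± 1.27 to 15.3 ± 3.62 CPM (1.34, edgeR adjusted p = 0.0474, block 0.0862). The triglyceride enzymes Dgat1 (0.07, adjusted p = 0.884) and Dgat2 (-0.29, adjusted p = 0.737) and the lipase inhibitor gene Hilpda (-0.33, adjusted p = 0.488) did not pass in edgeR. Plin3, another droplet coat gene, named after its values were seen, had 51.5 ± 11.1 and 81.1 ± 22.5 CPM (SD, n = 3; 0.66, edgeR adjusted p = 0.181), with LOH above heterozygous in all 3 lines. No lipid was measured here.

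In the MBOAT family, to which the SOAT enzymes belong, 1 of 7 tested genes rose (3.55% of all genes): Mboat2, a lysophospholipid acyltransferase, went from 2.25 ± 0.74 to 28.9 ± 14.7 CPM (SD, n = 3; log2 fold change 3.67, edgeR adjusted p = 0.0164, block 0.0263). In this list 4 had an unadjusted p under 0.05, and DESeq2 called 2 higher and 1 lower. Without passing in edgeR, Hhat (-1.77, adjusted p = 0.0788), Mboat1 (-0.56, 0.132) and Mboat7 (-0.16, 0.583) were lower without overlap. Porcn (0.77, 0.0771) was higher without overlap. Of 4 tested oxysterol and bile acid enzymes, Cyp27a1, which makes an oxysterol that can activate LXR, rose from 0.21 ± 0.13 to 2.04 ± 0.86 CPM (3.13, edgeR adjusted p = 0.0353, block 0.0810). It had 10, 1 and 7 counts in the heterozygous libraries, so its size is poorly fixed. None of 6 tested HDL and chylomicron genes passed in edgeR (1 with an unadjusted p under 0.05, 1 called higher by DESeq2 and 0 by limma).

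**Figure D5:**
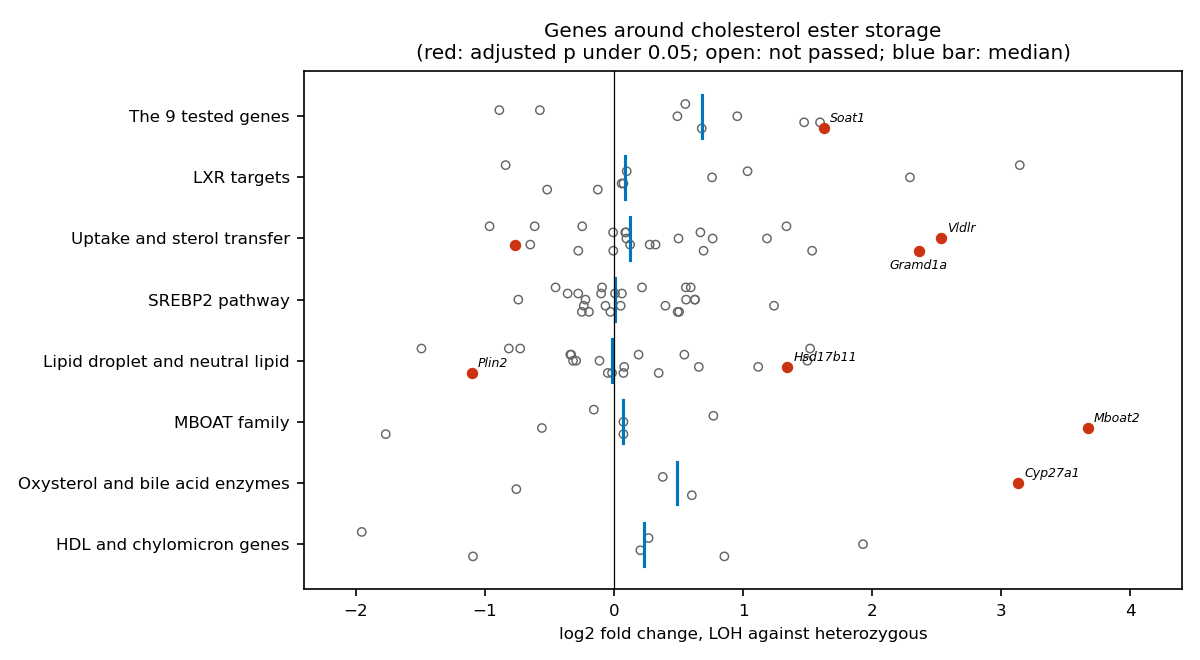
Log2 fold change (LOH against heterozygous) of each tested gene of the pathway lists, filled red where the edgeR adjusted p was under 0.05 and open otherwise (only red genes named in the text are labelled), with a blue bar at each median. Most lists centre near 0, with medians from -0.02 to 0.49, and single genes such as Mboat2 (3.67) and Plin2 (-1.10) lie away from their list.

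Across the 6 libraries, the genes with the course most like that of Soat1 were Primpol (Pearson r of log2 CPM 0.999), Ptprr (0.997), Cdk14 (0.996), Myo7b (0.996) and Git2 (0.995), out of 8400 protein-coding genes whose mean reached 10 CPM. Those most opposite were Atp9b, Akr7a5 and Zfp275, each at -0.995. Among the other 8 tested genes, Npc1 (0.941), Nr1h2 (0.934), Npc2 (0.829) and Nceh1 (-0.906) had r of the largest size. These values describe 6 libraries of unequal depth in 2 groups that share lines, and the difference between the groups carries most of each.

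Macrophages are the cells best known for storing cholesterol esters, so their markers were measured beside Soat1. Of 16 macrophage and leukocyte markers, 3 passed the filter. The 6 genes Adgre1, Tyrobp, C1qa, C1qb, C1qc and Lyz2 had 0 counts in all 6 libraries. Other markers that did not pass were still detected at a low level. Csf1r peaked at 16 counts (heterozygous, line 6) and Laptm5 at 16 (LOH, line 6). Aif1 peaked at 12 and Ptprc at 7 (both LOH, line 23). The summed level of the list was 48.6 to 50.5 CPM in the heterozygous and 38.4 to 87.0 CPM in the LOH libraries. Most of it was Cd14, at 43.9, 47.3 and 44.1 against 19.7, 40.6 and 31.4 CPM. Cd68, a lysosomal glycoprotein abundant in macrophages, was higher in every LOH library, at 1.70, 1.78 and 1.84 against 2.97, 6.95 and 14.7 CPM. Mrc1, a mannose receptor, was called higher in LOH, at 2.17, 0.89 and 3.17 against 14.2, 17.3 and 40.7 CPM. The part of these markers in the results above was not tested. Fibroblast markers summed to 0.074 to 0.17 CPM in the heterozygous and 0.60 to 1.16 CPM in the LOH libraries, with Col3a1 and Thy1 at 0 throughout, and endothelial markers to 0.22 to 0.30 and 0.60 to 2.91 CPM, with Emcn at 0. In bulk libraries such as these, a change in the share of cells of a type and a change in RNA per cell cannot be told apart.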

How the data were processed

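Total RNA was extracted with TRIzol and made into stranded total RNA libraries, per the labels' protocols. The submitters' processing notes name FastQC 0.11.5, STAR 2.5.2b, RSEM 1.3.0, DESeq2 1.44.0 and the build GRCm38.p5, with no role or order, and the table names refer to GENCODE M16. The authors deposited expected counts, TPM, effective lengths (the base length over which reads could start) and isoform percent values per gene or transcript, per the file headers. The deposited normalized table held a signal equal to the truncated counts divided by 1 size factor per library, as checked on all its genes, and served to match gene names.

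The expected counts were first rounded to integers. Genes passing edgeR's filterByExpr were fitted with edgeR 4.0.16 (quasi-likelihood, TMM scaling, group means over all 6 libraries) with Benjamini-Hochberg adjustment over all genes tested at 0.05, and transcripts likewise. CPM and log2 CPM (prior count 2) use TMM library sizes. Alternatives were other scalings and filters, DESeq2 1.42.0, limma 3.58.1 on log2(TPM + 1) or log2(TPM + 0.1) of genes with at least 1 TPM in 3 libraries, the organoid line as a block, and leaving out each library or line. The edgeR fits with TMM scaling, without and with the line block, were tested on simulated data of genes and of transcripts. The other alternatives were not. The 3 lines pair the libraries because each gave both genotypes. The correlation of the paired deviations from the group means was -0.30, 0.01 and 0.29 for lines 6, 23 and 34. With 3 libraries a group, p-values and intervals set each difference against the spread between these libraries. In the edgeR, limma and DESeq2 fits the spread of each gene was also moderated by that of the other genes. The fits without the block do not use the pairing by line.

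Gene coordinates come from GENCODE M21 (GRCm38), which holds 53274 of the 53379 gene identifiers, and promoters from RefSeq (GRCm38.p6), which matched 7 of the 10 genes. The 10 genes, the lists and the tests were chosen with earlier results of these data known. Named were a set of genes fixed for their function and the genes of each list that passed the test with the smallest p in each direction. The 5 genes most like and 3 most opposite to Soat1 were also named. Some items of the design and some genes of the lists are not reported here.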

Additional observations from a re-analysis of the deposited data

Results flagged for a closer look

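For 5 of 17 values compared by line (the 10 genes and the 7 list medians), the lines moved in opposite directions. With 1 library per genotype in a line, these differences were not tested. Abca1, the exporter with 2 to 41 counts per library, had log2 ratios of LOH to heterozygous of 1.53 in line 6, -1.50 in line 23 and 0.16 in line 34, a span of 3.03. Abcg1 had log2 ratios of 2.21, 1.69 and -1.0, a span of 3.22, and 6 to 93 counts. The median log2 ratio of the cholesterol uptake and sterol transfer genes was 0.29, -0.09 and 0.31, a span of 0.40. That of the lipid droplet genes was 0.42, -0.10 and -0.13, a span of 0.56. That of the MBOAT family relatives of Soat1, a list without Soat1 and Soat2, was 0.51, -0.22 and -0.17, a span of 0.72. In each of these lists line 6 stood above 0 and line 23 below it.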

How the results depend on the processing

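Soat1 kept its direction under every alternative run. Leaving out 1 library gave log2 fold changes of 1.52 to 1.71; with the block and without heterozygous or LOH library 23 or 34 its adjusted p missed 0.05 (1.52, 1.62, 1.53 and 1.63), and leaving out line 23 or line 34 gave 1.53 and 1.65, with edgeR adjusted p = 0.153 and 0.118. In these 2 fits no gene of the 10 was called (2 and 3 with an unadjusted p under 0.05), and none of all genes (2253 and 2097). Between 0 and 3 of the 10 genes were called when 1 library was left out, with 1 to 3 under an unadjusted 0.05 where none was called. Limma on log2(TPM + 1) called 2, adding Nceh1 at -0.84. Nceh1 ranged from -0.80 to -0.49 and Npc1 from 0.46 to 0.64 without 1 library and without the block. Soat1-201 passed with no filter (1.63, edgeR adjusted p = 0.0478). Of all genes, edgeR called 757, or 213 with the replicate block, in which no call among the 10 changed; DESeq2 called 2262, limma 1790 and 1214, and edgeR 1422 without line 6. Without 1 heterozygous library edgeR called 0 (2272 to 2966 unadjusted), and without 1 LOH library 451 to 2449. On the TPM scales, where the median of all genes was -0.35 or -0.42, list medians went to -0.33 and -0.34 for LXR targets, -0.35 and -0.38 for uptake, -0.45 and -0.46 for SREBP2, -0.40 and -0.43 for droplets, -0.090 and -0.10 for oxysterol enzymes and -0.20 and -0.29 for HDL genes. Without a filter the LXR median was 0.72 and the HDL median 1.24, and DESeq2 gave 0.74 and 1.28. Leaving out 1 library without the block gave medians of 0.016 to 0.39 for LXR targets and 0.025 to 0.81 for HDL genes; with the block, the HDL median was 0.55 and 0.67 without heterozygous 23 or 34 and -0.080 and 0.67 without LOH 6 or 34, and the SREBP2 median 0.11 and 0.115 without heterozygous or LOH 6. Leaving out line 23 gave 0.44 for LXR targets, leaving out line 6 gave 0.11 for SREBP2, and leaving out line 34 gave 0.69 for HDL genes. Leaving out a library within the blocked fit was added after seeing the data. The causes were not tested. Abca1, Abcg1, Nr1h3 and Soat2 had as few as 2, 6, 5 and 51 counts in a library, and Abca1 and the scarcest genes have no value under stricter filters.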

Other observations

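Several list genes with large fold changes missed the threshold, and those named here were chosen after their values were seen. Among the LXR targets, Pltp, which transfers phospholipids between lipoproteins, stood at 0.22 ± 0.061 CPM in the heterozygous and 1.12 ± 0.69 CPM in the LOH libraries (SD, n = 3; log2 fold change 2.29, edgeR adjusted p = 0.0685). Rnf145, a ubiquitin ligase of sterol sensing, stood at 25.0 ± 4.42 and 51.3 ± 15.5 CPM (1.03, edgeR adjusted p = 0.0705). Smpdl3a, a phosphodiesterase gene induced by LXR in macrophages, reached 28.6 CPM in the LOH library of line 6 and 2.11 and 2.28 CPM in those of the other lines (3.14, edgeR adjusted p = 0.129). Arl4c, of the same list, went the other way, from 59.8 ± 4.62 to 33.4 ± 16.7 CPM (-0.84, edgeR adjusted p = 0.219).

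Abhd5, the co-activator of the triglyceride lipase at lipid droplets, stood at 22.9 ± 1.64 CPM in the heterozygous and 8.12 ± 3.95 CPM in the LOH libraries (SD, n = 3; log2 fold change -1.49, edgeR adjusted p = 0.0602). Lipe, hormone-sensitive lipase, which also splits cholesterol esters, stood at 6.92 ± 0.43 and 14.99 ± 5.62 CPM (1.12, edgeR adjusted p = 0.0841). Insig2, a sterol sensor of the endoplasmic reticulum, stood at 13.2 ± 1.01 and 31.0 ± 12.04 CPM (1.24, edgeR adjusted p = 0.0742). The groups did not overlap for any gene named in this section, as for 32.8% of all genes tested, and all 3 lines had the same direction for each.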
